A study of Mus musculus with 14 samples.

Results

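Peaks of pSMAD1/5/9, SMAD4 and H3K27ac were looked up at 9 forkhead genes with roles in muscle and mesoderm, *Foxc1*, *Foxc2*, *Foxf1*, *Foxf2*, *Foxl1*, *Foxk1*, *Foxo1*, *Foxo3* and *Foxp1*, out of 21757 protein-coding genes. A peak was counted for a gene when it overlapped the canonical transcript or the 20 kb on either side by at least 1 bp. *Foxf1*, *Foxc2* and *Foxl1* lie next to each other and were treated as 1 shared locus, so the 9 genes gave 7 loci. The cells were primary muscle stem cells (MuSCs) of female C57BL/6N(Tg(Pax7-EGFP)Tajb) mice aged 9 weeks, sorted by their Pax7-EGFP fluorescence and cultured at 3% oxygen. Both groups were starved for 6 h with 200 ng/mL soluble BMPR1A-Fc, which binds BMP ligands. They then received 100 ng/mL BMP6 or the vehicle (4 mM HCl with 0.1% BSA, called control here) for 1 h before fixation (2 min, 0.1% formaldehyde). In CUT&Tag, an antibody bound to chromatin recruits Tn5, which cuts and tags the DNA around it, and each library was made from 100000 cells with 2 biological replicates per antibody and condition.

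Forkhead (FOX) proteins are transcription factors that share a winged-helix DNA-binding domain. FOXC1 and FOXC2 act in paraxial mesoderm and blood vessels, FOXF1, FOXF2 and FOXL1 in the mesenchyme around gut and lung, and FOXK1 is known from myogenic stem cells. FOXO1 and FOXO3 are held out of the nucleus when insulin signals through AKT, and in muscle they are known for quiescence of stem cells and for atrophy of fibers. FOXP1 is mostly described as a repressor. BMP ligands act through receptors that phosphorylate SMAD1/5/9, which enters the nucleus with SMAD4, and H3K27ac marks active promoters and enhancers.

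The deposited data are 6 lists, each 1 consensus of both replicates with an irreproducible discovery rate (IDR) of at most 0.05. They hold 7339 pSMAD1/5/9, 12860 SMAD4 and 78050 H3K27ac peaks after BMP6, and 949, 8577 and 67790 in control cells. Signal was compared by rank within a list, in which rank 1 is the strongest peak. The libraries of an antibody had been brought to the same number of reads, and the lists used here do not give the reads behind each peak. A site missing from a list was not detected there, which does not show that it is unoccupied. H3K27ac lay within 2 kb of the TSS of 9 of 10 MuSC markers in both conditions, the exception being *Chrdl2*. The same held for 0 of 3 fibro-adipogenic, 0 of 3 endothelial and 1 of 3 immune cell markers (*Cd68*), beside 55.1% of all genes after BMP6 and 53.0% in control cells.

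The stretches of 30 bases below come from some of the SMAD peaks, read 5′ to 3′ on the plus strand of GRCm39. No SMAD4 window without a match is shown, such as that of the strong peak at the start of *Foxo3*. Capitals mark the 1 match that a line is named for: to GGCGCC or GGAGCC, a SMAD site of BMP-responsive genes, to the forkhead motif TGTTTAC, to the E-box CAGCTG or to an AP-1 site, TGACTCA or TGAGTCA, on either strand. The SMAD palindrome GTCTAGAC was also searched. A stretch without capitals is the centre of a peak that held no match in the 200 bp centred on its summit.
Foxk1 pSMAD1/5/9, intron 2, first SMAD site, chr5:142426293-142426322: taggggtGGAGCCcacgtgtttacaaacac
Foxk1 pSMAD1/5/9, intron 2, forkhead match, chr5:142426298-142426327: gtggagcccacgTGTTTACaaacacgccct
Foxk1 pSMAD1/5/9, intron 2, second SMAD site, chr5:142426338-142426367: tcccaggcagcgGGAGCCagggtggggcag
Foxk1 pSMAD1/5/9, intron 1, summit, chr5:142412569-142412598: tgtgtgtgtgtgtgtgtgttttcttgggtg
Foxo3 pSMAD1/5/9 and SMAD4, past the gene end, SMAD site, chr10:42053994-42054023: ccaggctagagtGGCTCCtgtttcactgca
Foxo3 SMAD4, upstream, E-box, chr10:42170081-42170110: cccacccacacaCAGCTGgttggctgactg
Foxo3 SMAD4, upstream, AP-1 site, chr10:42170136-42170165: cttctagtacaaTGAGTCAcctctaaaaca
Foxp1 SMAD4, start site, SMAD site, chr6:99004964-99004993: tgaaggctgaggGGCGCCccagccttccct
Foxo1 SMAD4, past the gene end, E-box, chr3:52276541-52276570: tggaatcttcctCAGCTGttgggaagcaac

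After BMP6, pSMAD1/5/9 was listed at *Foxk1* and *Foxo3* and at none of the other 7 genes. These are 2 of 9 genes, where 29.1% of all genes had a pSMAD1/5/9 peak under the same rule. *Foxk1* held 3 peaks and *Foxo3* held 1, so the 7 loci held 4 in all, or 0.0591 per 10 kb of region against 0.0587 over all genes. In control cells 1 peak was listed, at *Foxo3*, and 5.97% of all genes had one. SMAD4 was listed at 4 of 9 genes after BMP6, with 4 peaks at *Foxo3*, 3 at *Foxk1*, 3 at *Foxp1* and 1 at *Foxo1*, beside 39.3% of all genes. In control cells it was listed at 3 of 9 genes, with 7 peaks at *Foxo3*, 2 at *Foxk1* and 1 at *Foxp1*, beside 30.8% of all genes. H3K27ac was listed in the region of every one of the 9 genes in both conditions, where 74.8% of all genes had a peak after BMP6 and 73.4% in control cells. For *Foxf1*, *Foxc2* and *Foxl1* this was 1 and the same peak, at a neighbouring gene. With the summit required in the region 8 genes had H3K27ac, and with 10 kb on either side 7 had it, in both conditions. With 9 genes, these shares were read beside those of all genes and not tested.

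The bound genes are also the long ones. The regions of *Foxk1*, *Foxo1*, *Foxo3* and *Foxp1* span 100.5 to 138.2 kb, and 10.5% to 17.8% of all genes have a longer region. Those of *Foxc1*, *Foxf2*, *Foxf1*, *Foxc2* and *Foxl1* span 42.7 to 46.7 kb, and 73.3% to 90.3% of all genes have a longer one. A longer region can hold more peaks, and gene length and binding cannot be told apart here. Per 10 kb, SMAD4 reached 0.162 peaks at the 7 loci after BMP6 and 0.148 in control cells, against 0.0973 and 0.0661 over all genes. H3K27ac reached 1.3 and 1.18 peaks per 10 kb against 0.53 and 0.465.

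*Foxk1* (ENSMUSG00000056493.11) lies on the plus strand from chr5:142387240 to 142447766 with 9 exons. After BMP6 all 3 of its pSMAD1/5/9 peaks lay in introns. The strongest spanned chr5:142425583-142426560 in intron 2. Its summit lay 39153 bp from the *Foxk1* TSS and nearer to that of *Ap5z1*, a neighbour past the gene end. This peak had a signal of 23888 in the first replicate column and 18629 in the second, which rank 1044 and 915. As a consensus it ranked 943 of 7339 (top 12.8%). Both replicates thus placed this site alike. Its −log10 IDR of 3.737 was the highest of the 4 pSMAD1/5/9 peaks after BMP6.

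The SMAD4 peak over the same site, chr5:142425724-142426746, ranked 1766 of 12860 after BMP6. Here the replicates were far apart, with signals of 21274 and 3250, which rank 977 and 6557. The −log10 IDR was 1.36, close to the threshold, and by IDR the peak ranked 12079. In control cells a SMAD4 peak of 198 bp stood within the same site, chr5:142426087-142426284, with replicate signals of 2811 and 1723. It ranked 8342 of 8577, among the weakest of its list. The site therefore had a narrow, low-ranked SMAD4 peak in control cells and a peak of 1023 bp after BMP6 whose rank depended on the replicate. Peak widths had a step of 1 bp in the BMP6 SMAD4 list and of 3 bp in the control SMAD4 list. The part of this step in the SMAD4 widths here and at *Foxo3* was not tested.

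The 200 bp around this pSMAD1/5/9 summit held 2 SMAD sites and 1 forkhead match. Of all 7339 windows of the list, 30.2% held a SMAD site and 1.78% the forkhead motif. The first SMAD site and the forkhead match both lie within the first sequence printed above, the latter in lower case there and in capitals in the second, at −90 and −80 bp from the summit. A match describes these letters and does not show which protein was there. H3K27ac covered the site in both conditions with peaks of 3500 bp after BMP6 (rank 2704 of 78050) and 3600 bp in control cells (rank 2313 of 67790).

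The second pSMAD1/5/9 peak of *Foxk1*, chr5:142412323-142412985 in intron 1, had its summit 25344 bp from the TSS. Its signals of 7894 and 12037 rank 5093 and 2172 in the replicate columns, and it ranked 3553 as a consensus. Its −log10 IDR was 1.844, below the 2 that a threshold of 0.01 requires. The summit fell in a run of TG repeats, shown above, and none of the 5 motifs matched in the 200 bp centred on it. The whole peak of 663 bp held 1 E-box and 1 AP-1 site. A SMAD4 peak overlapped it after BMP6 (rank 8278, summit at 25163 bp), and no SMAD4 peak was listed there in control cells. It lay under an H3K27ac peak of 10080 bp after BMP6 (rank 2188) and of 9300 bp in control cells (rank 3553). For the former the replicates were far apart, with ranks of 16944 and 833, and for the latter they were 2702 and 5416. The third peak, chr5:142427455-142427922 in intron 2, ranked 6273 with replicate ranks of 5242 and 6911. It was the 1 pSMAD1/5/9 peak of the 4 without SMAD4. A further SMAD4 site in intron 1, at 11378 bp after BMP6 and 11289 bp in control cells, ranked 12417 and 7622 and had no pSMAD1/5/9. H3K27ac also covered the TSS of *Foxk1*, with ranks of 8571 after BMP6 (replicates 11051 and 6981) and 10253 in control cells (10133 and 10339). No SMAD peak lay within 2 kb of that TSS. The region further holds the TSS of the neighbour *Ap5z1*, at chr5:142449664, under H3K27ac with ranks of 24031 and 18263. That TSS was nearer than the *Foxk1* TSS to both intron 2 pSMAD1/5/9 peaks. With peaks given to the nearest TSS, *Foxk1* had 2 pSMAD1/5/9 peaks after BMP6, at 25344 and −553497 bp. Which gene these sites act on was not tested.

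*Foxo3* (ENSMUSG00000048756.13) lies on the minus strand from chr10:42057837 to 42152759 with 4 exons. Its pSMAD1/5/9 peak after BMP6, chr10:42053881-42054510, had its summit 3840 bp past the end of the gene, 98762 bp from the TSS. Its signals of 26049 and 8275 rank 857 and 3777, and the consensus ranked 1464 of 7339 (top 19.9%). The first replicate column was thus well above the second. The window around its summit held 1 SMAD site, in reverse as GGCTCC, and no match to the other 4 motifs. In control cells no pSMAD1/5/9 peak overlapped it. The 1 control pSMAD1/5/9 peak at *Foxo3*, chr10:42046881-42047480, lay 10803 bp past the gene end and ranked 842 of 949, and no SMAD4 peak overlapped it in either condition.

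SMAD4 was listed at the site past the gene end in both conditions. After BMP6 it formed 1 peak, chr10:42053716-42054724, with signals of 22113 and 14257, replicate ranks of 886 and 688 and a consensus rank of 779 of 12860 (top 6.06%). This was the highest-ranked SMAD peak of any of the 9 genes in its list. In control cells 2 peaks of 240 and 333 bp took its place, and they ranked 6525 and 4127 of 8577. H3K27ac covered the site in both conditions, with ranks of 8957 after BMP6 and 6265 in control cells.

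At the start of *Foxo3*, SMAD4 was listed without pSMAD1/5/9. After BMP6, 1 peak of 1023 bp, chr10:42153574-42154596, had its summit at −1222 bp, upstream of the TSS, and ranked 1054 of 12860, with replicate ranks of 815 and 1722. None of the 5 motifs matched in the 200 bp around that summit. The whole peak held 6 SMAD sites, 1 E-box and 1 forkhead match, and no share of the list is given for whole peaks. In control cells 3 peaks of 276 to 399 bp stood at −1403, −967 and −69 bp and ranked 4305, 1927 and 6791 of 8577. The first and the second of these overlapped the BMP6 peak, and the third, which covered the TSS itself, did not. The peak at −967 bp had replicate ranks of 3091 and 1039. In the order given, the windows around the 3 control summits held 2, 1 and 2 SMAD sites. Counts alone therefore give *Foxo3* more SMAD4 peaks in control cells (7) than after BMP6 (4), while 6 of the 7 control peaks overlapped a BMP6 peak and 2 of the 4 BMP6 peaks each overlapped a pair of control peaks.

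The other SMAD4 sites of *Foxo3* were weaker and occurred in both conditions. The upstream one, at −17354 bp after BMP6, ranked 6519 and had 2 E-boxes and 1 AP-1 site in its window. In control cells it stood at −17284 bp with a rank of 7746. The one in intron 2, 38977 bp from the TSS, ranked 11990 after BMP6, and at 39067 bp it ranked 7969 in control cells. The H3K27ac peak at the *Foxo3* TSS ranked 3691 of 78050 after BMP6 (top 4.73%, replicate ranks of 5298 and 3070). In control cells it ranked 8973 of 67790 (top 13.2%, replicate ranks of 8448 and 9672). The lists differ in length and share no scale, so these ranks give no difference between conditions.

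**Figure D1:**
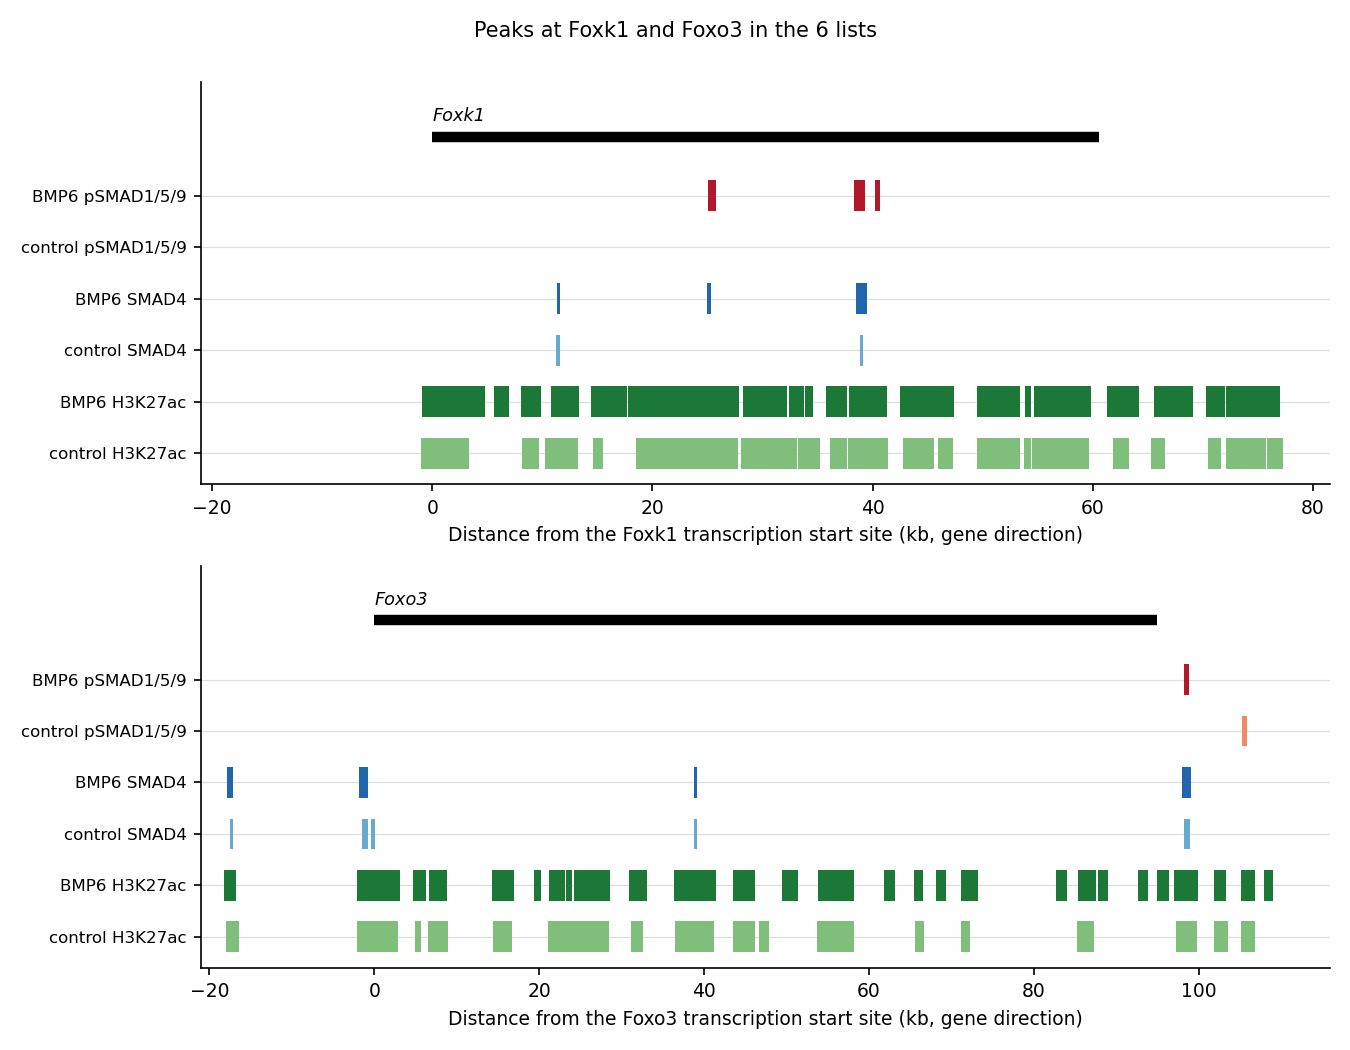
Peaks of the 6 lists at *Foxk1* (top) and *Foxo3* (bottom) against distance from the TSS in kb, in the direction of the gene. Boxes are consensus peaks, with a minimum drawn width, and black bars are the transcripts. The 4 pSMAD1/5/9 peaks after BMP6 lie in introns of *Foxk1* or past the end of *Foxo3*, and none lies at a TSS.

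*Foxp1* (ENSMUSG00000030067.19) lies on the minus strand from chr6:98907051 to 99005220 with 15 exons in its canonical transcript. No pSMAD1/5/9 peak was listed in its region in either condition. After BMP6, SMAD4 was listed at 3 sites, of which the first, chr6:99004794-99005346, covered the TSS and ranked 10528 of 12860, with replicate ranks of 9920 and 10828. It had no control peak and 1 SMAD site in its window. The second, in intron 7 at 72388 bp, ranked 8163 and had no control peak either. The third, in intron 8 at 78198 bp, ranked 8432, and a control peak at 78207 bp ranked 6267 of 8577. None of the 4 SMAD4 peaks of *Foxp1* passed an IDR of 0.01.

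H3K27ac at the *Foxp1* TSS stood higher than at any other of the 9 genes. In control cells the peak of 4400 bp ranked 276 of 67790 (top 0.407%), with replicate ranks of 533 and 230. After BMP6 the peak of 4620 bp ranked 1194 of 78050 (top 1.53%), with replicate ranks of 2318 and 1101. The canonical transcript covers 98.2 kb, whereas the 37 basic transcripts of *Foxp1* together span 597.4 kb. Their region held 88 H3K27ac peaks after BMP6 and 68 in control cells. It added 1 pSMAD1/5/9 peak at −418957 bp (rank 6514, overlapped by SMAD4) and 4 SMAD4 peaks after BMP6, and 2 SMAD4 peaks in control cells. Among canonical TSSs, that of *Gm20696* was nearer than that of *Foxp1* to each of these added SMAD peaks. Which gene they act on was not tested.

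*Foxo1* (ENSMUSG00000044167.8) lies on the plus strand from chr3:52175757 to 52260642 with 3 exons. Its region held 1 SMAD peak in the 4 SMAD lists, a SMAD4 peak after BMP6 at chr3:52276479-52276726, 15949 bp past the gene end. It ranked 12018 of 12860 with signals of 2352 and 1775 and did not pass an IDR of 0.01. Its window held 1 SMAD site and 1 E-box. H3K27ac covered the TSS in both conditions, with ranks of 6377 of 78050 after BMP6 and 6531 of 67790 in control cells.

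Outside the region of *Foxo1*, the nearest pSMAD1/5/9 site and the strongest were looked up after the values had been seen. At −109286 bp a pSMAD1/5/9 peak ranked 1038. On the other side, the TSS of *Foxo1* was the nearest protein-coding one to a pSMAD1/5/9 peak 335136 bp away, chr3:52510471-52511316, which ranked 128 of 7339 (top 1.74%), with replicate ranks of 206 and 78. SMAD4 overlapped it in both conditions, with ranks of 225 of 12860 after BMP6 and 99 of 8577 in control cells. Some other sites for which this TSS is the nearest ranked low, such as a pSMAD1/5/9 peak 138967 bp away at 5660 of 7339 and a control SMAD4 peak at 7957 of 8577. Nearness to a TSS does not show which gene such a site acts on.

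**Figure D2:**
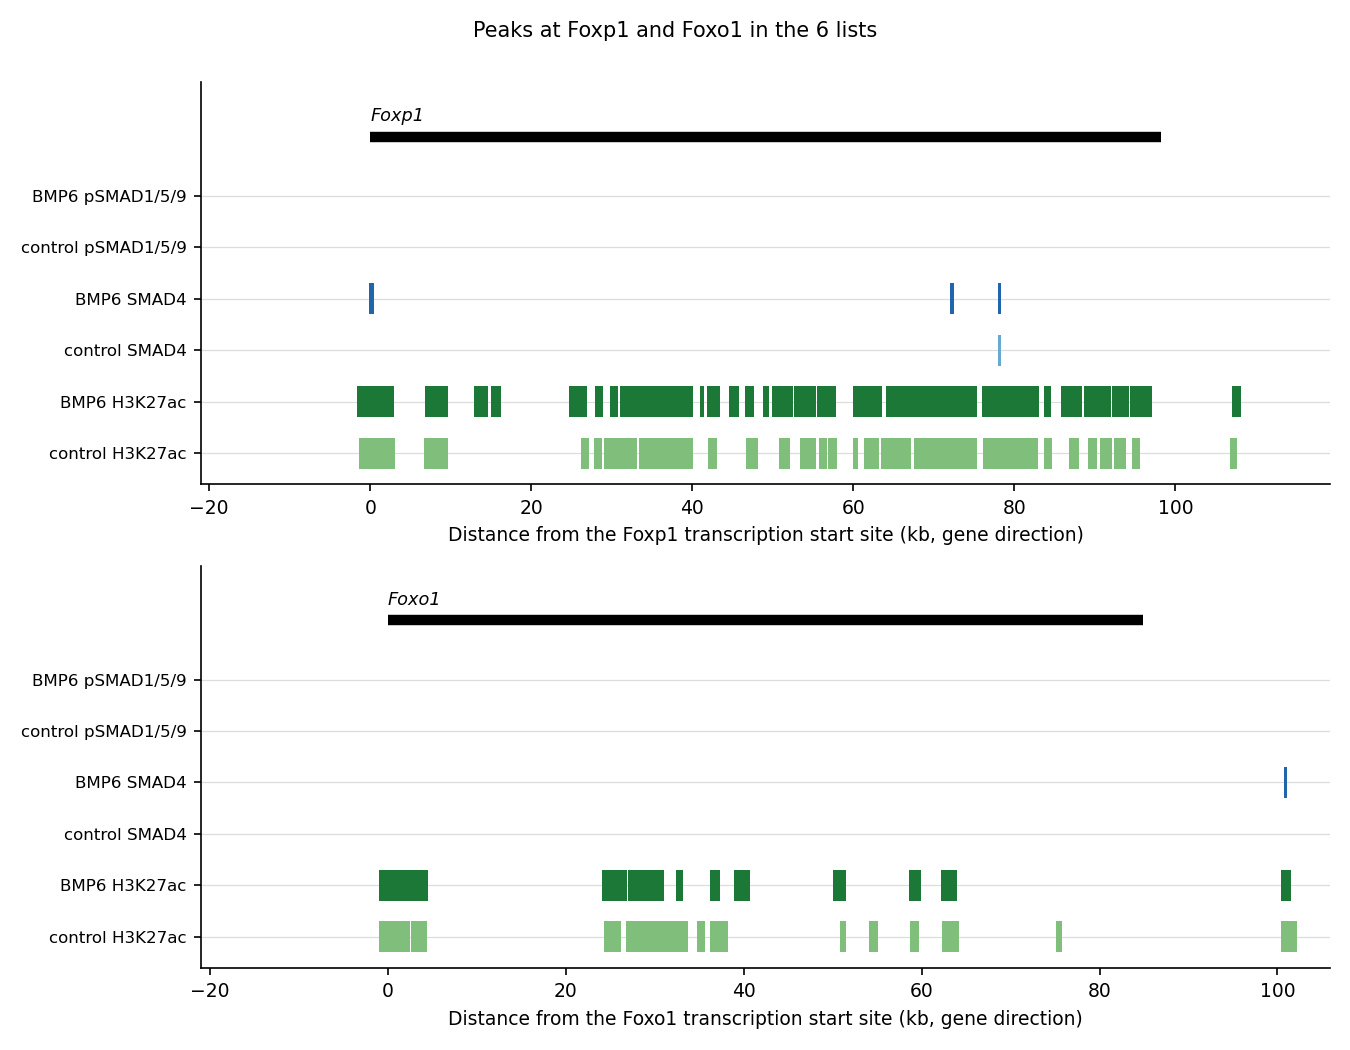
Peaks of the 6 lists at *Foxp1* (top) and *Foxo1* (bottom) against distance from the TSS in kb, in the direction of the gene, with boxes and bars as for *Foxk1* and *Foxo3*. The pSMAD1/5/9 rows are empty, and SMAD4 appears at 3 sites of *Foxp1* after BMP6 and past the end of *Foxo1*.

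No SMAD peak was listed at the genes of mesoderm and mesenchyme. *Foxc1* (ENSMUSG00000050295.5), a gene of 1 exon on the plus strand from chr13:31990616 to 31996459, had 3 H3K27ac peaks in each condition. The third lay past the gene end, in an intron of the neighbour *Gmds*. Another covered the TSS of *Foxc1* and ranked 27014 of 78050 after BMP6 (top 34.6%) and 34047 of 67790 in control cells (top 50.2%). The nearest SMAD4 peak after BMP6 lay at −40980 bp (rank 8585), and the nearest pSMAD1/5/9 peak was 672.6 kb away. *Foxf2* (ENSMUSG00000038402.4), from chr13:31809663 to 31816393, had 1 H3K27ac peak of 700 bp in each condition, and both were weak. The BMP6 peak covered the TSS and ranked 69677 of 78050, the control peak stood 7842 bp from it and ranked 65115 of 67790, and they shared no base. Neither passed an IDR of 0.01.

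*Foxf1* (ENSMUSG00000042812.7, chr8:121811074-121814883), *Foxc2* (ENSMUSG00000046714.8, chr8:121842910-121845634) and *Foxl1* (ENSMUSG00000097084.2, chr8:121854679-121857383) share a region of 86.3 kb. It held 1 H3K27ac peak in each condition, of 1120 bp after BMP6 (rank 42709) and 1100 bp in control cells (rank 32817). This peak covered the TSS of the neighbouring gene *Mthfsd* and had its summit at −7939 bp from *Foxc2* after BMP6. No H3K27ac peak covered the TSS of *Foxf1*, *Foxc2* or *Foxl1* in either condition. The nearest pSMAD1/5/9 peak, chr8:121914181-121914990, lay 59.9 kb from *Foxl1*, 71.6 kb from *Foxc2* and 103.5 kb from *Foxf1* and ranked 3257 of 7339. A second stood 69.3 kb from *Foxl1* with a rank of 3038. SMAD4 overlapped both after BMP6 (ranks 4833 and 2754), and in control cells it was listed at the second (rank 5070).

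**Figure D3:**
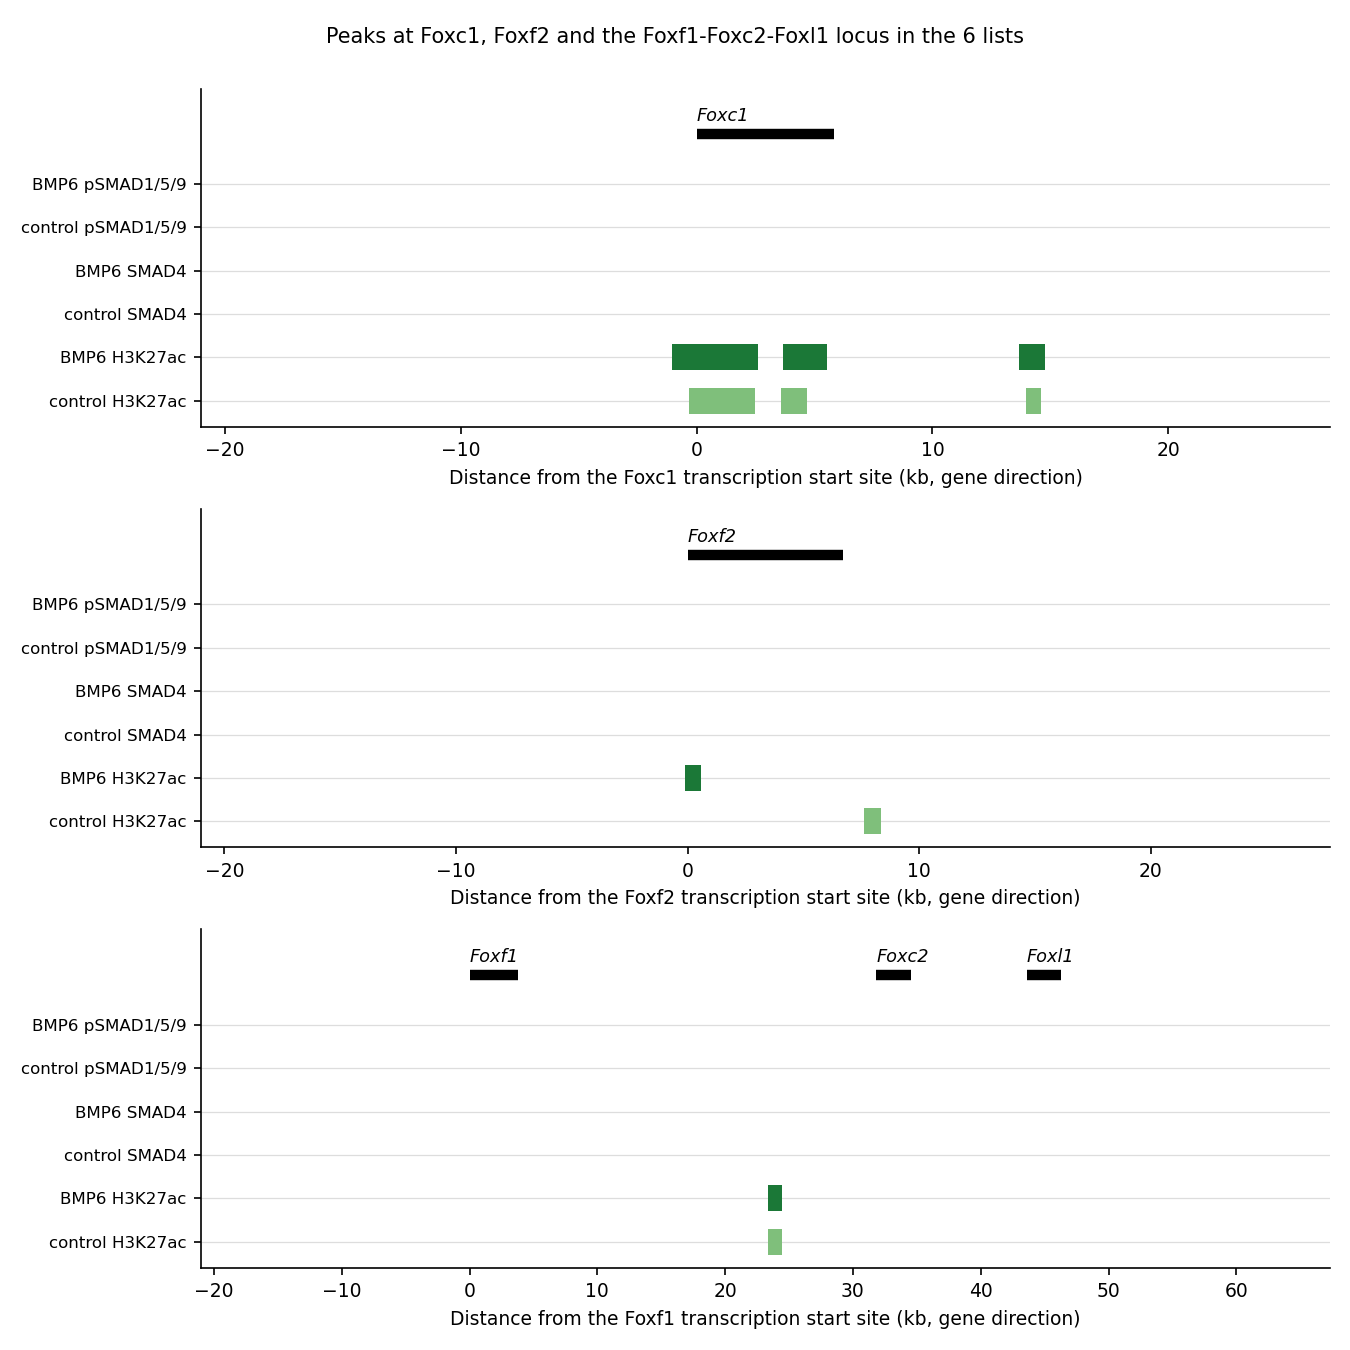
Peaks of the 6 lists at *Foxc1* (top), *Foxf2* (middle) and the locus of *Foxf1*, *Foxc2* and *Foxl1* (bottom) against distance from the TSS in kb. The 4 SMAD rows are empty at all 3 loci, and the 1 H3K27ac site of the shared locus lies between *Foxf1* and *Foxc2*.

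Of the 4 pSMAD1/5/9 peaks after BMP6 at the members, 3 overlapped SMAD4 of the same condition (75%, Wilson 95% interval 30.1% to 95.4%). Over the whole list the share was 73.2%. None of the 4 overlapped a control pSMAD1/5/9 peak (0% to 49.0%), where the whole list gave 11.4%. Of the 11 SMAD4 peaks after BMP6, 7 overlapped a control peak (63.6%, 35.4% to 84.8%), against 45.5% of the list. In reverse, 9 of the 10 control SMAD4 peaks overlapped a BMP6 peak (90.0%, 59.6% to 98.2%), against 69.7%. The intervals cover counting error over peaks alone and are wide, and the list's share lay within each of these 4. All 4 pSMAD1/5/9 and all 21 SMAD4 peaks overlapped H3K27ac of their own condition, as 95.7% to 98.2% of the whole lists did.

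By position, 3 of the 4 pSMAD1/5/9 peaks after BMP6 lay in introns and 1 was intergenic, and none was within 2 kb of a TSS, where 33.8% of the list was. SMAD4 after BMP6 had 6 of 11 peaks in introns (30.2% of the list), 3 between genes (33.7%) and 2 within 2 kb of a TSS (31.3%). Around the 11 SMAD4 summits after BMP6, 4 windows held a SMAD site (28.4% of the list), 5 an E-box (29.1%), 1 an AP-1 site (15.1%) and none the forkhead motif (1.88%). Around the 10 control SMAD4 summits, 6 windows held a SMAD site (28.2% of the list) and 3 an E-box (32.7%). None of these 10 held an AP-1 site (14.8%) or the forkhead motif (1.76%). Most of the 6 windows with a SMAD site were at *Foxo3*. The 3 at its start were 74.0%, 64.0% and 79.0% G and C, where the median of the list was 55.5%. The SMAD palindrome was found in none of the 15 windows of pSMAD1/5/9 and SMAD4 after BMP6.

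**Figure D4:**
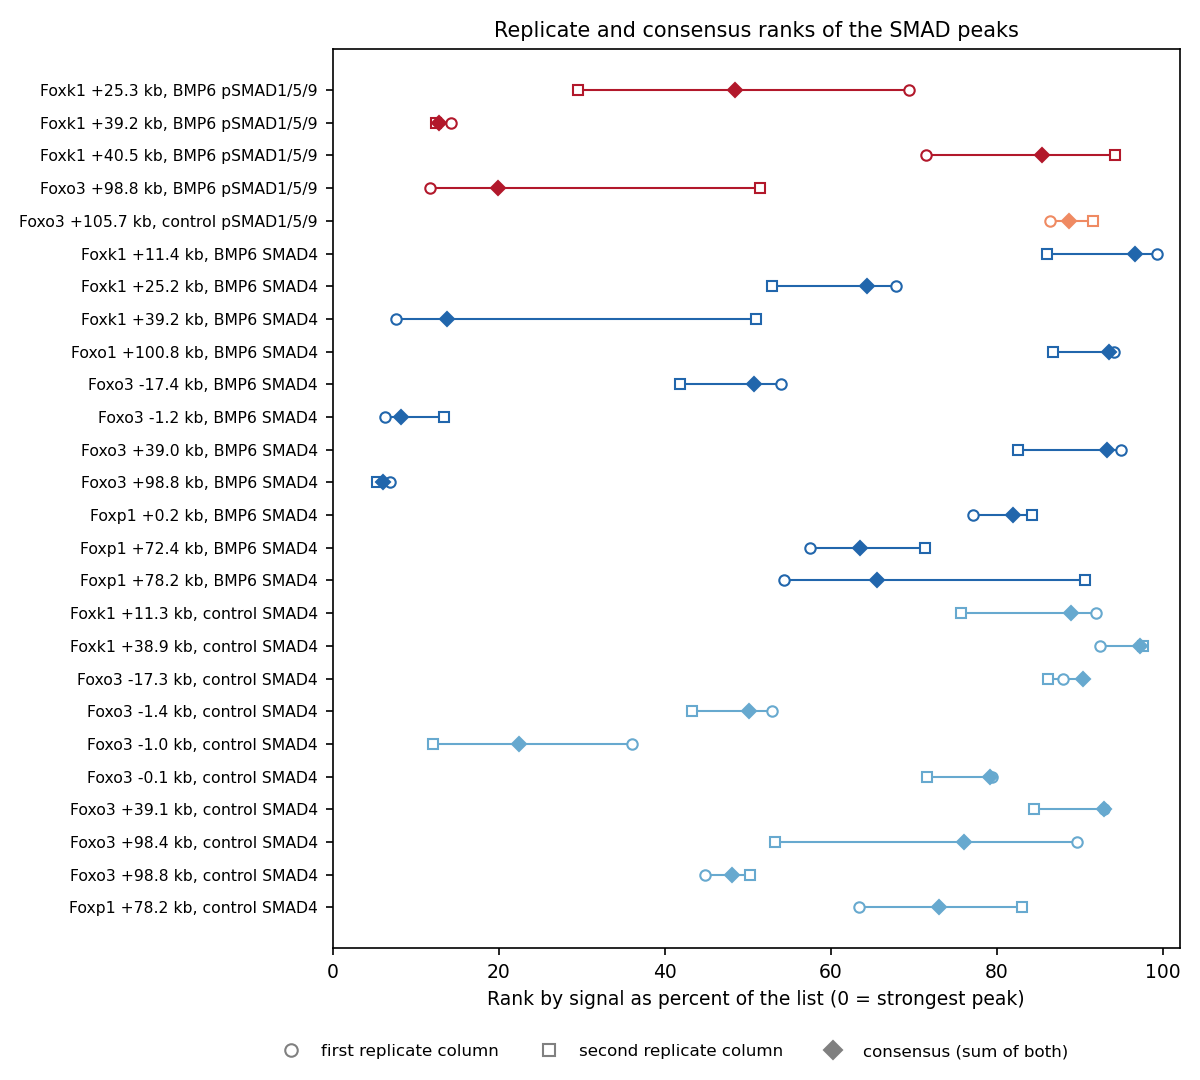
Rank by signal, as percent of the list, of each SMAD peak at the 9 genes in the first replicate column (circle), the second (square) and the consensus (diamond). The strong peaks of *Foxk1* at 39.2 kb for SMAD4 and of *Foxo3* at 98.8 kb for pSMAD1/5/9 have wide gaps between replicates. The pSMAD1/5/9 peak of *Foxk1* at 39.2 kb and the SMAD4 peak of *Foxo3* at 98.8 kb have narrow ones.

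H3K27ac covered a large part of 3 loci. At *Foxk1* its peaks covered 63.6% of the region after BMP6 (63.98 kb in 19 peaks) and 53.8% in control cells (54.1 kb in 19 peaks). In both conditions this includes peaks past the end of *Foxk1*, at the TSS and exons of *Ap5z1*. *Foxp1* had 51.7% (71.4 kb, 27 peaks) and 41.8% (57.8 kb, 24 peaks), and *Foxo3* had 42.4% (57.26 kb, 27 peaks) and 32.5% (43.9 kb, 20 peaks). *Foxo1* went the other way, with 17.4% after BMP6 (21.77 kb, 10 peaks) and 19.2% in control cells (24.0 kb, 12 peaks). *Foxc1* had 14.5% and 9.82%, and *Foxf2* and the shared locus had 1.27% to 1.5% in either condition. Over the genome, H3K27ac peaks covered 5.97% after BMP6 and 4.94% in control cells. The genome includes stretches far from genes, so these shares are not a like measure beside gene regions. The covered share over the regions of all genes is not given. All peak widths were multiples of 70 bp in the BMP6 list and of 100 bp in the control list, and the part of this step in the covered length was not tested.

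Most H3K27ac peaks of the members were listed in both conditions. Of 88 after BMP6, 71 overlapped a control peak (80.7%, 71.2% to 87.6%), against 72.0% of the list, and of 80 in control cells 75 overlapped a BMP6 peak (93.8%, 86.2% to 97.3%), against 86.8%. *Foxo3* had 9 of the 17 BMP6 peaks without a control peak and *Foxp1* had 5. Of the 17, 9 passed an IDR of 0.01, 5 of them at *Foxo3* and 2 at *Foxp1*. The highest-ranked of the 17, at *Foxp1*, was 39796 of 78050. Of the 5 control peaks without a BMP6 peak, 3 were at *Foxo1*, among them the highest-ranked (36758 of 67790). Of these 5, 1 passed an IDR of 0.01.

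**Figure D5:**
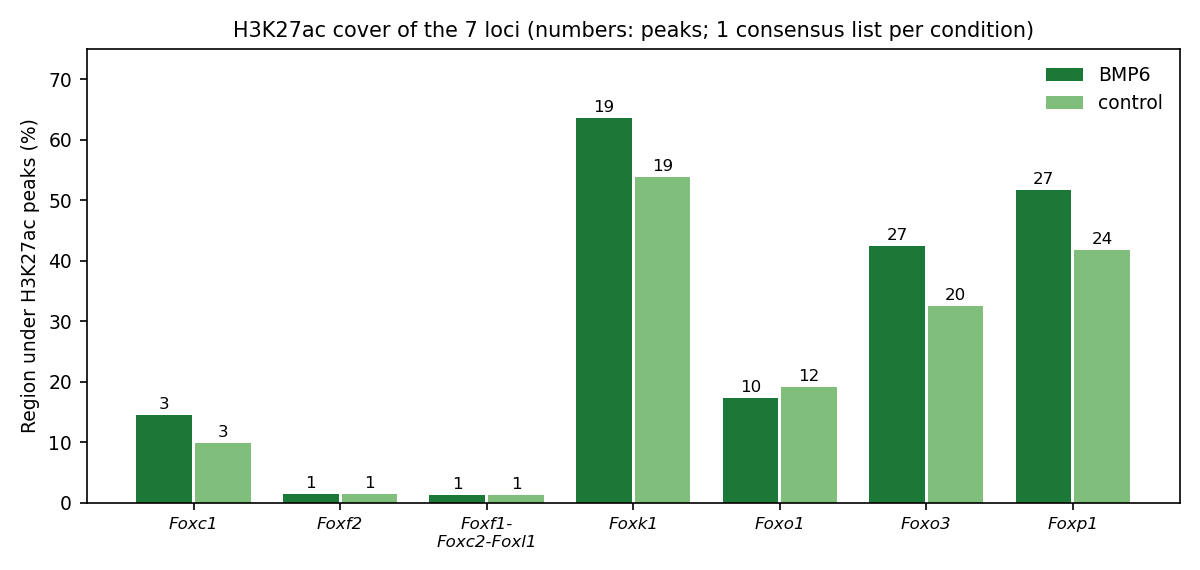
Share of each region under H3K27ac peaks, in percent, after BMP6 (dark) and in control cells (light). Numbers above the bars count the peaks, and there is 1 consensus list per condition and so no error bar. *Foxk1*, *Foxo3* and *Foxp1* lie above 32% in both conditions, and *Foxf2* and the shared locus at or below 1.5%.

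Among the other 35 forkhead genes, 12 had a pSMAD1/5/9 peak after BMP6 (34.3%) and 1 in control cells (2.86%). SMAD4 was listed at 16 after BMP6 (45.7%) and 9 in control cells (25.7%). H3K27ac was listed at 22 in each condition (62.9%), though not the same 22. A peak shared by neighbouring genes was counted for each of them. Over all genes the shares were 29.1% and 5.97% for pSMAD1/5/9, 39.3% and 30.8% for SMAD4, and 74.8% and 73.4% for H3K27ac. The 12 were *Foxa3*, *Foxe3*, *Foxh1*, *Foxj2*, *Foxj3*, *Foxm1*, *Foxn2*, *Foxn3*, *Foxn4*, *Foxo6*, *Foxp3* and *Foxr1*. *Foxo6*, another FOXO gene, held 5 pSMAD1/5/9 peaks, the strongest at rank 272. At *Foxj2* the strongest ranked 438, at *Foxn3* 503 and at *Foxh1*, whose product works with activin-type SMADs, 1178. The first 3 of these stood higher in the list than any peak of *Foxk1*. In the number of peaks over the 6 lists, *Foxk1* was most like *Foxm1* (distance 1.95 on the log2(peaks + 1) scale) and *Foxo3* most like *Foxn3* (1.9).

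Of 20 genes around the FOXO factors, both regulators such as *Akt1* and described targets, 9 had a pSMAD1/5/9 peak after BMP6 (45.0%) and 2 in control cells (10.0%). SMAD4 was listed at 13 after BMP6 and 12 in control cells, and H3K27ac at all 20. All genes had 29.1% and 5.97% for pSMAD1/5/9, 39.3% and 30.8% for SMAD4, and 74.8% and 73.4% for H3K27ac, and the difference was not tested. The strongest pSMAD1/5/9 peak belonged to *Akt1*, a kinase that inactivates FOXO proteins, with rank 306. *Cdkn1b*, a cell cycle inhibitor and FOXO target, followed at rank 1844. *Sgk1*, a further kinase of FOXO proteins, had rank 3012, *Akt2* had 5 peaks with the strongest at rank 3025, and *Mdm2*, a ubiquitin ligase, had rank 3794.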

How the data were processed

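CUT&Tag peaks of MuSCs stimulated with BMP6 or vehicle were analysed from 6 consensus lists made from 12 of 14 libraries, grouped by antibody and treatment as labelled. The other 2 libraries, made without a primary antibody, were not used here. According to the methods, the authors brought the libraries of an antibody to the same number of reads, mapped these with Bowtie2 2.5.4 (GRCm39), filtered with SAMtools 1.21, called peaks per replicate with JAMM and combined replicates with IDR. The deposited score is the scaled IDR, the deposited signal is that of the peak caller (the consensus is the sum of both replicates), and the authors' lists give the IDR as −log10. Replicate columns carry no number. Their signal was used, and 36 columns with the peak positions and summits of single replicates were not. The number of reads behind each peak is unknown.

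Positions were made 1-based. Transcripts were the canonical ones of GENCODE, in place of the RefSeq isoforms that the methods name. Peaks within 2 kb of a TSS were called TSS peaks. Motifs were counted on both strands in 200 bp centred on the summit and, where stated, in the whole peak. Shares have Wilson 95% intervals, and no test was made, since each condition is 1 list. Python 3.11.15, pandas 2.3.3, scipy 1.17.1, pysam 0.24.0 and matplotlib 3.10.9 were used. On simulated data, 600 of 600 overlaps and 400 of 400 locations were recovered.

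The members and gene lists were chosen with earlier results of these data known. The genes named were the 9 members, neighbours whose TSS lies in a region, other forkhead genes with pSMAD1/5/9 after BMP6 or the nearest profile, and the 5 FOXO-related genes with the strongest pSMAD1/5/9. *Gmds*, which overlaps the region of *Foxc1*, and *Gm20696*, whose TSS is nearest to the added SMAD peaks of *Foxp1*, were named after values had been seen. *Chrdl2* and *Cd68*, from the marker lists, were named after their values were seen, as the exceptions of their lists. The sites beyond the regions, the steps of peak width, the motif counts in whole peaks and the sequences shown were chosen after values had been seen. Alternatives covered the IDR threshold, the region, the transcripts, the overlap, the rank, the motif window and each replicate column left out. A further list of cell type markers is not reported here.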

Additional observations from a re-analysis of the deposited data

How the results depend on the processing

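At an IDR of 0.01, 2 pSMAD1/5/9 peaks were left after BMP6 (at *Foxk1* and *Foxo3*) and 0 at 0 members in control cells, and 3 SMAD4 peaks at 1 member (*Foxo3*) in either condition. The 3 control SMAD4 peaks then overlapped BMP6 peaks in 100.0%. At that threshold the whole lists kept 3674 pSMAD1/5/9 and 6322 SMAD4 peaks after BMP6, and 141 and 3575 in control cells. With 10 kb on either side, 0 control pSMAD1/5/9 peaks at 0 members were counted. In the window from 1.5 kb before to 0.5 kb after the TSS, 0 pSMAD1/5/9 peaks at 0 members were left in either condition, 2 SMAD4 peaks at 2 members after BMP6, 3 at 1 member in control cells, and 6 and 5 H3K27ac peaks, the latter at 5 members. Peaks given to the nearest TSS came to 9 pSMAD1/5/9 at 4 members and 23 SMAD4 after BMP6, to 5 members with control SMAD4, and to 169 and 135 for H3K27ac. All basic transcripts gave 149 and 124 H3K27ac peaks, since those of *Foxp1* span more of the genome. With an overlap of 50% of both peaks, sharing was 0% for pSMAD1/5/9 with control SMAD4 and with H3K27ac of either condition, 27.3% for SMAD4 after BMP6 with control, 30% in reverse, 9.09% for SMAD4 with H3K27ac after BMP6, 0% in control cells, and 63.6% and 70.0% for H3K27ac. H3K27ac peaks are wider than SMAD peaks, and the causes of the other shifts were not tested. With 50 kb on either side (24 results) or the summit in the region (12 results), none moved by over 1.5 times.

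With 1 replicate column left out, the strongest SMAD4 peak of *Foxk1* after BMP6 ranked 977 to 6557, the pSMAD1/5/9 peak of *Foxo3* 857 to 3777 (3124 when ranked by IDR), and its strongest control SMAD4 peak 1039 to 3091. The strongest H3K27ac peak ranked 833 to 16944 at *Foxk1* after BMP6 and 2581 to 11898 at *Foxo3* in control cells. In 100 bp around the summit, 0 of 4 pSMAD1/5/9 peaks held the forkhead motif and 1 of 11 SMAD4 peaks after BMP6 a SMAD site. In 400 bp, 2 pSMAD1/5/9 peaks held an E-box, and of the SMAD4 peaks 7 held a SMAD site, 2 an AP-1 site and 1 the forkhead motif. No paired analysis was possible because each list is 1 consensus per condition, its replicate columns carry no number and no test was made. Counts of peaks have no error between replicates, and ranks of lists of different length were set side by side with no common scale.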
